A study of Mus musculus with 24 samples.

Results

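Dido1, death inducer-obliterator 1, carried 3 loci with m6A peaks among the 16801 loci of the series, and the peaks at 2 of them, in neighbouring exons, were listed in opposite kidneys of the injury and treatment groups. A locus is a stretch in which peaks of any kidneys overlap. The members are all listed peaks that overlap an exon of Dido1 on its strand, 26 of 91013 peaks. The gene was chosen by the presence of peaks at the loci of exon 3 and exon 4 in IG and TG kidneys, so the presence of peaks there is described below without a test. Dido1 is 1 of 7765 protein-coding genes with a listed peak, and 25.3% of these genes had 3 or more loci.

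The kidneys came from male C57BL/6 mice aged 8 weeks (C57 in the sample labels), in 3 groups of 4. Control mice received saline by daily injection and a vehicle in place of cisplatin, and mice of the injury group (IG) received saline and then cisplatin at 20 mg/kg. Mice of the treatment group (TG) were given berberine at 20 mg/kg on each of 14 days and then the same cisplatin dose. All kidneys were taken 72 h after the cisplatin or vehicle injection, and the labels name no batch. Cisplatin, a platinum drug that cross-links DNA, damages the cells of the renal tubule. Berberine is a plant alkaloid. In whole kidneys, fewer cells of a type and less RNA per cell cannot be told apart.

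N6-methyladenosine (m6A) is placed on mRNA by a methyltransferase complex, mostly within the sequence RRACH (R is A or G, H is A, C or T). MeRIP-seq pulls down RNA fragments with an antibody against m6A, and MACS calls peaks where the reads pile up. Each list gives the position of a peak and its score, minus 10 times the log10 of the p-value of the call. The lowest score, 13.02, lies just above the 13.01 that a p-value of 0.05 would give. The lists held 8531 to 9579 peaks per control kidney, 6745 to 8357 per IG kidney and 5901 to 6753 per TG kidney. They hold no read counts, so depth is unknown and a missing peak may lie below the calling threshold. Listed peaks are no measure of expression and could not check the tissue: of 8 genes that mark segments of the nephron, 3 had a peak in some kidneys and 5 (among them Umod and Lrp2) in none.

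DIDO1 proteins are nuclear and are known as regulators of apoptosis, of genome stability and of stem cell self-renewal. Splicing yields short, middle and long forms that share their N-terminal part, in which a PHD finger binds histone H3 methylated at lysine 4. The longer forms add a TFIIS-like domain and a SPOC domain, and the longest form ends in a large terminal exon of its own.

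The gene lies on the minus strand of chromosome 2, from 180657964 to 180709999 in GRCm38, with 7 transcripts in GENCODE. Dido1-202 is the longest, with 16 exons and 2256 codons. Dido1-205 and Dido1-206 have 1183 codons each, and Dido1-204 and Dido1-207 have 614. Exon 3 of Dido1-202 (180688824 to 180689655, 832 bases) holds the start codon at 180689651 to 180689653 and 830 coding bases. Exon 4 (180687476 to 180687797, 322 bases) is coding throughout. Both exons occur in 6 of the 7 GENCODE transcripts and in 13 of 14 RefSeq transcripts, so they do not separate the short, middle and long forms. The exception in GENCODE is Dido1-201, a transcript that begins further downstream. The terminal exon (180657964 to 180662583) belongs to 1 of 7 GENCODE transcripts, Dido1-202, but to 7 of 14 RefSeq transcripts.

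The sequences of both neighbouring exons are shown because the opposite listings turn on them, in the direction of transcription, from the GRCm38 genome, with RRACH in capitals. The stretch of exon 4 is chr2:180687476-180687775 and the stretch of exon 3, the part of the exon with most sites, is chr2:180688970-180689269.
Exon 4, bases 23 to 322: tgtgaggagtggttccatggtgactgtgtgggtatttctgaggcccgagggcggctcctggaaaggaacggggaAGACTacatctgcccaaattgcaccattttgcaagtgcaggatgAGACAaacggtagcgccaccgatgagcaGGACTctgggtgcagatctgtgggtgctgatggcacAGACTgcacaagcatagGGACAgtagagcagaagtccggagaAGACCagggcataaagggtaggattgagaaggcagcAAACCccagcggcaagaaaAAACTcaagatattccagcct
Exon 3, bases 387 to 686: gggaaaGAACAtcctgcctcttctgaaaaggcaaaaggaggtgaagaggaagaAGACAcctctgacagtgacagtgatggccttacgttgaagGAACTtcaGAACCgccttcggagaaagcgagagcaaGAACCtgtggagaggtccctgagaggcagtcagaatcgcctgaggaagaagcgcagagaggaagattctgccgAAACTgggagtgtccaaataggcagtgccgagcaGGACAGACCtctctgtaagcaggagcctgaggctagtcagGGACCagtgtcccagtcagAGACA
The first 30 bases of exon 3, with the start codon in capitals, are chr2:180689626-180689655.
Exon 3, start codon: gtATGgatgataaagggcacctgagcaatg

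Exon 4 held 8 RRACH sites on the gene's strand and 2 on the opposite strand, and exon 3 held 18 and 10. Stretches of 322 bases from the middle of other loci had a median of 5 sites, with at least 1 in 98.7% of 8122 stretches. Stretches of 832 bases had a median of 13, with at least 1 in 99.96% of 4736. GGACT, which is one form of RRACH, occurred once in exon 4 and 0 times in exon 3. At least 1 GGACT occurred in 32.8% of the stretches of 322 bases and in 61.5% of those of 832 bases. A match to these letters is not a methylated base.

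At exon 4, all 4 control kidneys had a peak, with scores of 800.4, 369.7, 466.0 and 607.9. None of the 4 IG kidneys had one. All 4 TG kidneys had one again, with scores of 596.8, 235.8, 53.5 and 119.2. Control and TG kidneys overlapped in score, with 1 TG kidney inside the control range and the other 3 below it. As a percentile of all scores in the kidney's own list, the peak stood at 89.0 ± 3.50 in controls (SD, n = 4) and at 68.4 ± 19.9 in TG (SD, n = 4).

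At exon 3 the listing ran the other way between IG and TG. All 4 IG kidneys had a peak, with scores of 777.3, 547.3, 341.7 and 647.8. No TG kidney had one. In controls 2 of 4 kidneys had one, with scores of 26.0 and 122.3, both below all IG scores. The percentile was 88.1 ± 3.57 in IG (SD, n = 4), and 21.8 and 61.9 in both control kidneys with a peak. The IG peaks at exon 3 and the control peaks at exon 4 thus took similar places in their lists, from 83.2 to 91.4 and from 84.8 to 93.2.

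**Figure D1:**
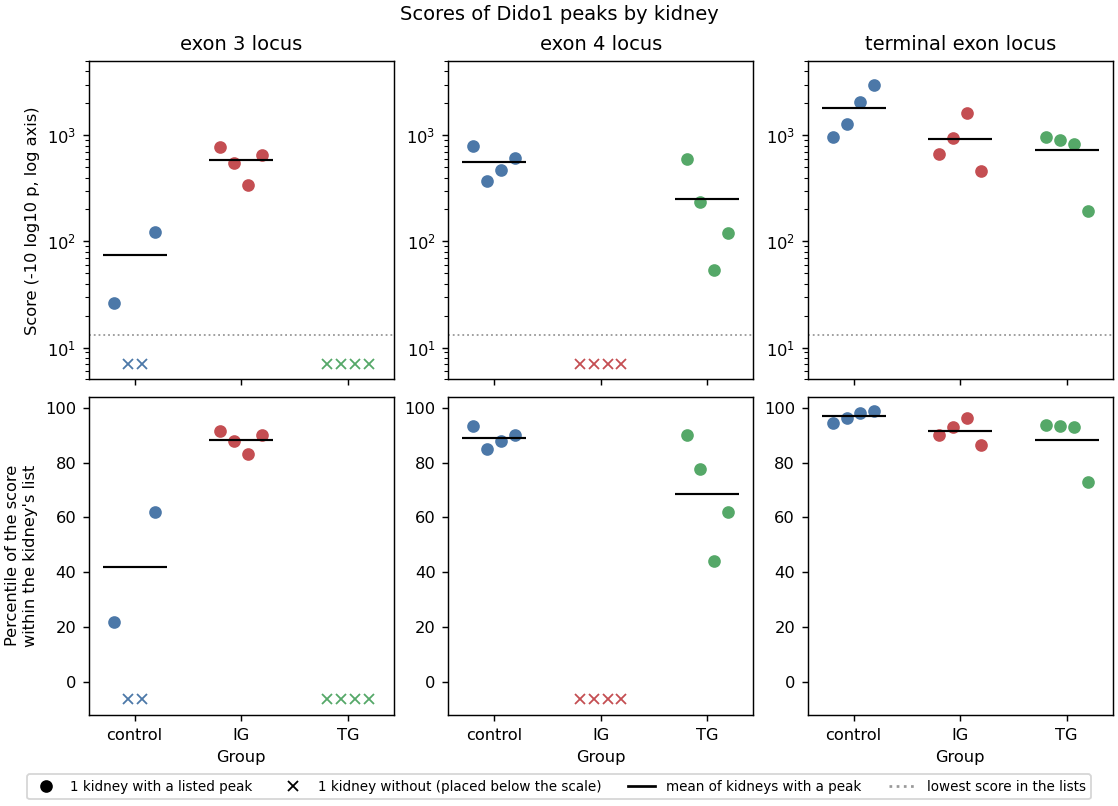
Scores of Dido1 peaks in the 12 kidneys (top row, log axis) and their percentile within the kidney's own list (bottom row), for the loci of exon 3, exon 4 and the terminal exon in control, IG and TG. Points are kidneys, crosses are kidneys without a listed peak, bars are means of the kidneys with one: exon 3 has points in 4 IG and 2 control kidneys, exon 4 in 4 control and 4 TG kidneys, and the terminal exon in all 12.

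A listing of 4 against 0 kidneys is the largest difference that presence can show. TvI (TG versus IG) had it at both loci, gained in TG at exon 4 and lost at exon 3, and over the series 0.674% of 13357 loci had it, 30 gained and 60 lost. In IvC (IG versus control) exon 4 had it as a loss, where 4.08% of 16061 loci had it in either direction, and exon 3 was listed in 2 more IG than control kidneys. In TvC (TG versus control) neither locus had it, against 4.72% of 15156 loci. The 3 comparisons share kidneys, and nothing is read from these counts because the same kidneys chose the gene. When peaks scoring below the overall median of 71.3 were dropped, exon 4 had a peak in 3 of 4 TG kidneys and exon 3 in 1 of 4 control kidneys.

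**Figure D2:**
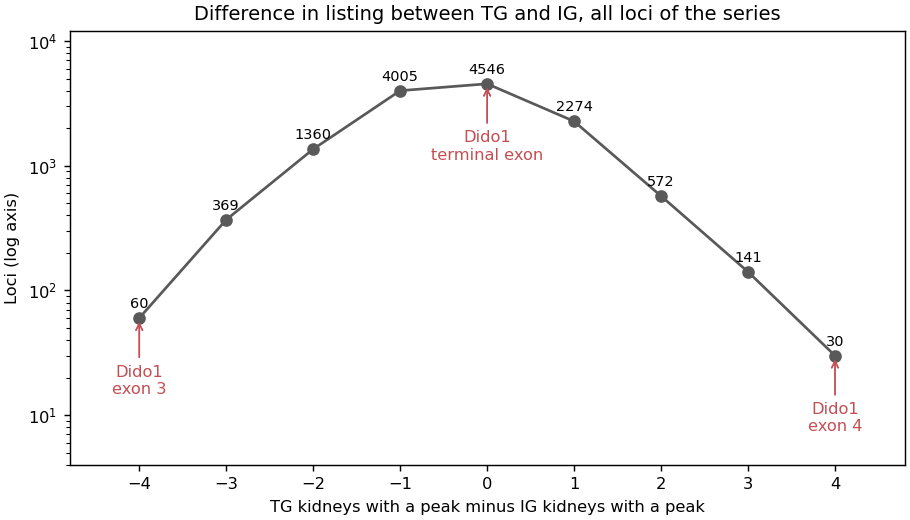
Number of loci (log axis) by the difference between TG and IG in the number of kidneys with a peak, over all loci with a peak in either group. The exon 4 locus of Dido1 is among 30 loci at the upper end, the exon 3 locus among 60 at the lower end, and the terminal exon among 4546 loci with no difference.

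The listed extents of the peaks differed between the neighbouring exons. At exon 4 all 8 peaks ran exactly from the first to the last base of the exon, as did 64.5% of all listed peaks for some GENCODE exon. At exon 3, 0 of 6 peaks followed the exon. In the direction of transcription all 6 ended at 180688711, 113 bases inside the intron between exons 3 and 4 of Dido1-202. They began 197 to 506 bases upstream of exon 3. The start furthest upstream, 180690161, was shared by 2 IG kidneys. Neither 180688711 nor 180690161 is an exon edge in GENCODE or RefSeq, and 5.78% of all listed peaks had no GENCODE exon edge at either end. The exon annotation behind the lists is not given in the sources used here. All 6 peaks covered the whole of exon 3 with its start codon. Both GGACT sites of this locus lay in the introns that flank exon 3 in Dido1-202, at chr2:180689949-180689977 and chr2:180688756-180688784, and are shown beside the site of exon 4, chr2:180687613-180687641, with GGACT in capitals.
Exon 4: caccgatgagcaGGACTctgggtgcagat
Intron before exon 3: ttttatgctgctGGACTgccctcatgtca
Intron after exon 3: gagacagtgagaGGACTgccatttgcttt

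**Figure D3:**
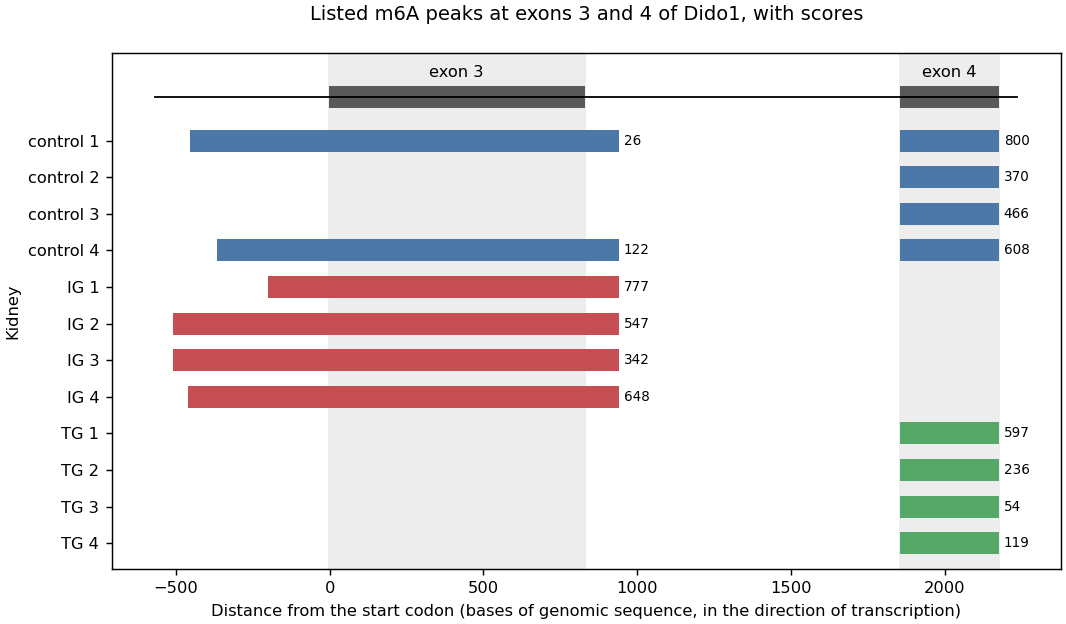
Extent of the listed peaks at exons 3 and 4 in each of the 12 kidneys (control blue, IG red, TG green), in bases from the start codon, with the annotated exons as dark boxes and the score beside each bar. Bars at exon 4 match the exon in 8 kidneys, bars at exon 3 extend beyond it on both sides in 6 kidneys, and 2 control kidneys have both.

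Each IG and each TG kidney had exactly 1 listed peak over both exons, at exon 3 in IG and at exon 4 in TG. Among controls, 2 kidneys had both and 2 had exon 4 only. Each MACS peak number occurred once per list, with 0 repeats in the 12 lists, so that no MACS peak was listed at more than 1 exon. The numbers rose along the genome. In all 12 kidneys the number after that of the terminal exon belonged to the next listed peak of Dido1, which in IG is the peak at exon 3. No separate call without a listing therefore lay at exon 4 in IG. In TG, 3 of 4 kidneys had no number between the exon 4 peak and the next listed peak, in Gid8, and so no separate call at exon 3. The third TG kidney had 1 such number, and so did the second and the third control kidney, which are the controls without a peak at exon 3. In these 3 kidneys the place of the unlisted call between exon 4 and Gid8 is unknown. The first control and the fourth IG kidney, which had a peak at exon 3, also had 1 unlisted number, between that peak and Gid8. An unlisted number was thus not confined to kidneys without a peak at exon 3. In the third TG and the fourth IG kidney the next listed peak began at 180717838, beyond another Gid8 locus. The lists do not give the extent of a MACS peak outside the listed stretch, and 913 bases lie between the loci. Whether 1 MACS peak reached across both exons in some kidneys and was listed at one of them was not tested.

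Of 2891 genes with at least 2 loci in TvI, 9 (0.311%) had 1 locus in at least 3 more and 1 in at least 3 fewer TG than IG kidneys. These were Dido1, 1700047I17Rik2, Cgn, Dnajb12, Jak2, Myh10, Rbm20, Rufy3 and Safb2. Dido1 was the gene among them with 4 of 4 against 0 of 4 kidneys in both directions, which is how it was chosen. In 5 of the 9 genes less than 2 kb lay between both loci, with 557 bases in Cgn, a tight junction protein, and 800 in Jak2, a cytokine receptor kinase. Exactly 1 of both loci was listed in each of the 8 IG and TG kidneys in Dido1 and Jak2.

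The terminal exon held the third locus, from 180658065 to 180662583, with a peak in all 12 kidneys. It codes for the C-terminal part of the longest form, with 3242 coding bases, the stop codon at 180659339 to 180659341 and 1375 bases after it. Scores in controls were 955.3, 1273, 2054 and 2979. The IG kidneys scored 665.5, 951.4, 1616 and 463.3. The TG kidneys scored 963.6, 899.8, 828.9 and 195.4. Some kidneys of each group overlapped those of the others in score.

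Within its own list the terminal peak stood at the percentile 96.8 ± 2.01 in controls, 91.5 ± 4.19 in IG and 88.2 ± 10.1 in TG (SD, n = 4 each). All 4 TG kidneys, from 73.0 to 93.8, lay below all control kidneys, from 94.4 to 98.9. The difference in TvC was -8.59 percentile points (exact permutation test, two-sided, with p = 0.0286, which is the smallest that 4 kidneys against 4 allow, and 0.0571 after Benjamini-Hochberg adjustment over 2 tests). In IvC 3 of 4 IG kidneys lay below all controls, with a difference of -5.38 (same exact test, p = 0.0857, adjusted p = 0.0857). Neither difference passed 0.05 after adjustment. Without any 1 of the 4 control kidneys the TvC difference had p = 0.114 to 0.2 (exact permutation test), without the fourth TG kidney it was -3.52 (p = 0.0571), and without the third IG kidney the IvC difference was -7.00 (p = 0.0286, exact permutation test). The length of the lists moved with the groups. In lists cut to 5901 peaks each, the TvC difference was -8.31 (p = 0.143, exact permutation test). Without peaks scoring below 71.3 it was -17.2 (p = 0.0286) and the IvC difference -10.9 (p = 0.0857, both exact permutation tests). Percentiles were taken anew within these shortened lists, which widens gaps between high percentiles. The sizes therefore do not compare with those of the full lists.

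By presence, the terminal locus could show no difference, since it was listed in all 4 kidneys of each group (two-sided Fisher's exact test, p = 1 and adjusted p = 1 in IvC and in TvC), and this says nothing on the stability of the peak. The number of Dido1 peaks outside exons 3 and 4, which was 1 in each kidney, gives the same fact (difference of 0 in both comparisons, exact permutation test, p = 1). With 4 kidneys against 4 the smallest p of Fisher's exact test is 0.0286, which 655 loci in IvC and 716 in TvC reached. Adjustment over all loci left 0 below 0.05, and with so few distinct p-values it could hardly do otherwise. The lowest adjusted p of Fisher's exact test was 0.701 in IvC and 0.605 in TvC.

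The listed stretch of the terminal peak began at the first base of the exon in all 12 kidneys but stopped at different places beyond the stop codon. The lists do not give the extent of a MACS peak outside the listed stretch, so this shared base need not be where the peak began. In controls the listed stretch ended 241, 274, 274 and 1194 bases after the codon, and in IG 1096, 1129, 1176 and 1181 bases after it. In TG the values were 349, 1136, 1236 and 1274. Thus 3 of 4 control kidneys and 1 of 4 TG kidneys ended within 349 bases of the stop codon, while all 4 IG kidneys went beyond 1 kb. The first control kidney lay beyond the IG range and within that of TG, and IG and TG overlapped each other. The listed stretch was 3741 ± 466 bases long in controls, 4391 ± 40.5 in IG and 4244 ± 437 in TG (SD, n = 4 each). The terminal locus held 82 RRACH sites and 5 GGACT sites on the gene's strand. Stretches of this length from 99 loci had medians of 75 and 5, and all 99 held both motifs. Of the 5 GGACT sites, 4 lay in coding sequence and 1 after the stop codon. The first and the last are shown, from chr2:180662465-180662493 and chr2:180659145-180659173, because they lie near both ends of the stretch that all 12 kidneys had in common.
Terminal exon, near its first base: cagatgagaagcGGACTcgactccaacag
Terminal exon, after the stop codon: atataatattctGGACTtcaggaattact

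**Figure D4:**
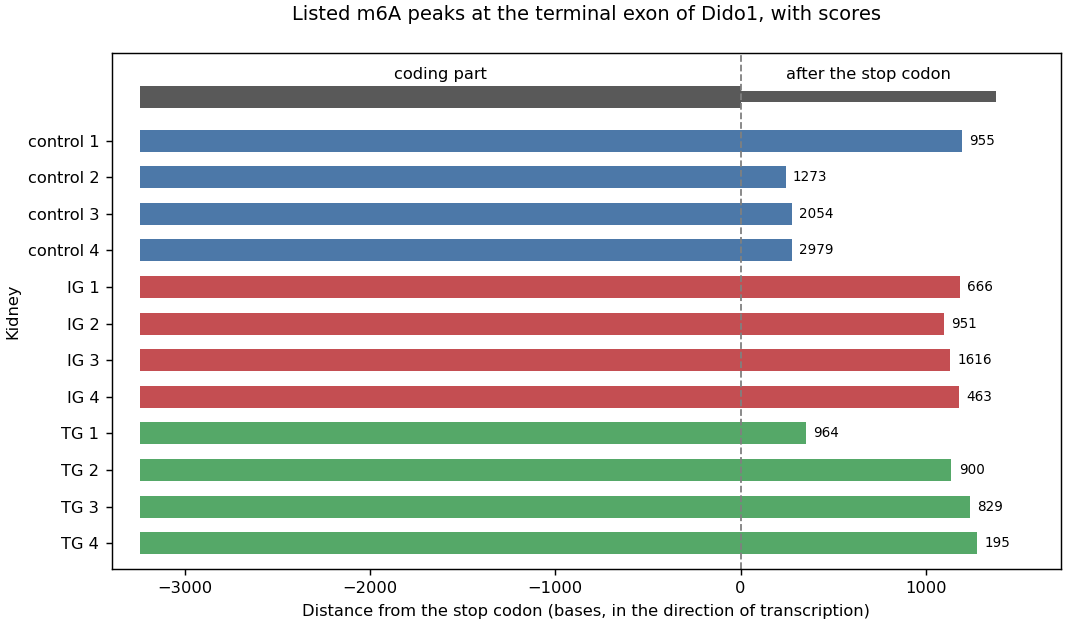
Extent of the listed peak at the terminal exon in each of the 12 kidneys (control blue, IG red, TG green), in bases from the stop codon (dashed line), with the coding part of the exon as a thick box, the part after the stop codon as a thin box and the score beside each bar. The bar ends between 241 and 1274 bases after the stop codon, and within 349 bases in 3 control kidneys and 1 TG kidney.

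Loci with the same listing as exon 4 in all 12 kidneys numbered 10 among 16550 loci of other genes. Among the 5 with the highest mean scores were loci in Casr, the calcium-sensing receptor of the thick limb, Csgalnact1, an enzyme of chondroitin sulfate synthesis, Nim1k, a kinase, and a stretch shared by Il16 and Stard5. Mean scores over the kidneys with a peak were 392.7 in Casr, 220.0 in Csgalnact1, 149.6 in Nim1k and 136.4 in Il16 and Stard5. The exon 3 listing was matched in all 12 kidneys by 2 loci, in Mga, a MAX dimerization protein (mean score 46.8), and Ubxn7, a cofactor of the p97 ATPase (27.8). Matches in 11 of 12 kidneys numbered 29, with the highest mean scores in Slc12a1, the sodium-potassium-chloride cotransporter of the thick limb (381.7), Zhx3, a homeobox repressor (183.2), and Senp5, a SUMO protease (111.2). The Slc12a1 locus was listed in 1 control, 4 IG and 0 TG kidneys.

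Genes that share domains with Dido1 were described by the same counts. Among 8 genes with a SPOC or TFIIS domain, 6 had 24 loci, with a median of 8.5 kidneys per locus against 4 over all loci. Listings of 4 against 0 kidneys occurred at 0 of 24 loci in IvC, 0 of 23 in TvC and 0 of 19 in TvI, where the shares over all loci were 4.08%, 4.72% and 0.674%, so that these counts are near the series as a whole. Phf3, which like DIDO1 has a PHD finger, a TFIIS-like and a SPOC domain, had 7 loci, of which 4 were listed in all 12 kidneys, with scores up to 3100 at the longest of them. In Spen, a large SPOC protein of X inactivation and repression, 3 of 6 loci were listed in all 12 kidneys, and 1 was listed in 3 control kidneys and no IG or TG kidney. Rbm15 and Rbm15b, which recruit the m6A writer complex, had 1 locus each, in all 12 kidneys. Among 12 PHD finger proteins that bind H3 methylated at lysine 4, 10 had 43 loci. In IvC 2 of 42 loci were listed in all control kidneys and no IG kidney, as were 2.73% of all loci. They were 1 in Ing1, a tumour suppressor that binds this mark, and 1 in Bptf, a chromatin remodelling subunit. The same Ing1 locus was the 1 of 40 loci listed in all control and no TG kidneys in TvC, against 3.73% of all loci. In TvI 0 of 38 loci had a listing of 4 against 0 in either direction, against 0.674% of all loci. These counts too are near those of the series.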

How the data were processed

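MeRIP-seq peak lists of 12 kidneys were analysed. The authors trimmed reads with cutadapt 1.9.3, aligned them to mm10 (GRCm38) with HISAT2 2.0.4 and ran MACS for peaks, and the deposited lists hold the stretches of these peaks on mRNAs. The version, threshold and control library of MACS are not given in the sources used here. The deposited score is minus 10 times the log10 of p, as the authors describe it, and the lowest values fit this. The 12 input libraries were not analysed here.

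A locus joined all peaks that shared 1 bp or more on either strand. Exons came from GENCODE M21 (RefSeq GRCm38.p6 as alternative). The genome's exons equalled the GENCODE sequences for 7 of 7 Dido1 transcripts. Presence was tested at all loci with two-sided Fisher's exact tests with Benjamini-Hochberg adjustment, and percentiles with two-sided exact permutation tests over 70 arrangements. IG and TG were not compared by test, because that contrast chose the gene. Members, gene lists and rules for naming genes were chosen with earlier results of these data known. Named were the 5 loci most alike each neighbouring exon in listing (ties by mean score; 1 of them is not reported here), the genes with opposite changes of at least 3 kidneys, and related genes. Fisher's exact test, before adjustment, was checked on simulated presence with planted differences, which at full detection it could not miss. The permutation test was checked on a single constructed example. No lists were identical. The study used 4 mice per group, but the labels do not tie kidneys to mice, and p-values measure the spread between these samples, which may be technical. Alternatives were list length, score threshold, joining rules, the replicate block, leaving out each kidney and, added after the data had been seen, the log10 score. Sequences were read with samtools 1.23.1 and pysam 0.24.0, values were computed in Python 3.11.15 with scipy 1.17.1 and numpy 2.4.6, and matplotlib 3.10.9 drew the figures.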

Additional observations from a re-analysis of the deposited data

Results flagged for a closer look

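In 4 of the 16 groups of 4 kidneys examined, one kidney stood apart from the other 3 by more than the 95% critical value of Dixon's gap ratio, which chance alone would give in about 5% of groups. At the terminal exon, the fourth TG kidney had the percentile 73.0, where the other TG kidneys had 93.0 to 93.8. The listed stretch there was 4439 bases long in the first control kidney and 3594 bases in the first TG kidney, against 3486 to 3519 and 4381 to 4519 in the others of each group. At exon 3 the stretch was 1142 bases long in the first IG kidney and 1403 to 1451 in the other IG kidneys. The 3 kinds of value (score, percentile and length) of a peak are not independent, and no cause was tested.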

How the results depend on the processing

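The difference in percentile at the terminal exon in TvC kept its sign under all 16 alternatives and its p under 0.05 (exact tests) under 8. These 8 include the joining rules and the counting of pieces of 1 MACS peak once. Such settings could not change the percentile of the 1 peak per kidney, and each returned -8.59 again. The replicate block uses the same difference, so its sign was fixed as well. With peaks scoring below the median dropped the TvC difference was -17.2 (p = 0.0286), and the IvC difference -10.9 (p = 0.0857, exact permutation tests). These percentiles were taken anew in the shortened lists, which widens gaps between high percentiles, so the sizes do not compare with the others. The TvC difference was -8.31 (p = 0.143) with equal list lengths and -0.431 (p = 0.0571) on the log10 score, and leaving out 1 kidney gave -10.4 to -3.52 (exact permutation tests, p = 0.0286 to 0.2). In IvC leaving out 1 kidney gave -7.00 to -3.72 (p = 0.0286 to 0.143, exact). With the replicate number as a block (exact sign flips, whose smallest p is 0.125) the TvC difference was -8.59 with p = 0.125 and the IvC difference -5.38 with p = 0.125. Same-numbered kidneys correlated at -0.0215 to 0.0492 in their deviations from the group means, so the replicate block rests on shared numbers only. Kidneys with a peak at exon 3 differed between IG and controls by 2, and by 1 to 3 when 1 kidney was left out. That range follows from counting 1 kidney fewer in a group and says nothing on any single kidney. Counts of Dido1 loci and peaks outside exons 3 and 4 were the same in all alternatives run, and the joining rules changed no listing at exons 3 and 4. Depth is unknown, which limits every statement on a missing peak.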

Other observations

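Of 7 other protein-coding genes within 100 kb of Dido1, 2 had listed peaks. Gid8, a subunit of an E3 ubiquitin ligase complex, lies upstream on the other strand with 3 loci. Its locus at 180712661 to 180713320 was listed in 4 control, 3 IG and 3 TG kidneys, with scores from 14.2 to 76.5. Its most downstream locus was listed in 2 control, 4 IG and 3 TG kidneys, with scores up to 332.5. Ogfr, an opioid growth factor receptor, had 1 locus, in 1 control and 1 IG kidney. A listing of 4 against 0 kidneys occurred at 0 of these 4 loci in IvC, TvC and TvI, against 4.08%, 4.72% and 0.674% of all loci.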
